A study of Homo sapiens with 15 samples.

Results

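HT1080 cells carrying inactive KDAC7 (variant H709A) were compared with HT1080 cells carrying inactive KDAC4 (variant H803A). KDAC7 and KDAC4 are the proteins of the genes HDAC7 and HDAC4. The comparison used the libraries labelled with either genotype: 4 of KDAC7 H709A and 3 of KDAC4 H803A, 7 of the 15 samples of the series. The remaining KDAC4 H803A column, of replicate 4, held effective gene lengths in place of counts and was left out, so the series gave 14 columns of counts.

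HT1080 is a human fibrosarcoma line. All 7 libraries came from total RNA of untreated cells grown in the same serum-containing medium, with ribosomal RNA depleted before library preparation. KDAC4 H803A cells have an active-site histidine of KDAC4 replaced by alanine (H803A), and KDAC7 H709A cells have a histidine of KDAC7 replaced by alanine. The series title describes the inactive enzymes as endogenously expressed. The labels do not say whether a genotype is 1 clone, whether both alleles are changed, or whether replicates are separate cultures, and a p-value here covers no more than the library-to-library spread, which may be technical. The other groups of the series, KDAC4 H976Y cells (4 libraries) and wild-type cells given the class IIa inhibitor TMP195 (3 libraries), entered the statistical model only to estimate the spread. Untreated wild-type cells were not analysed here, so a difference between the genotypes cannot be assigned to a change in either of them.

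KDAC4 and KDAC7 belong to the class IIa lysine deacetylases, together with the products of HDAC5 and HDAC9. These proteins bind MEF2 transcription factors and repress their target genes, partly by recruiting corepressor complexes that contain HDAC3. Phosphorylation moves them from the nucleus to the cytoplasm and releases the target genes. Their own deacetylase domains have little activity on acetyl-lysine compared with those of class I enzymes.

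The changed residues lie at corresponding places in the coding sequences if HDAC7 is numbered by ENST00000080059.11. The reference coding bases around each codon are printed with the histidine codon in capitals, 5′ to 3′ on the coding strand, which is the minus strand for both genes. The HDAC4 H803 codon lies in exon 19 of ENST00000345617.7 at chr2:239087579-239087581, and the HDAC7 H709 codon in exon 18 of ENST00000080059.11 at chr12:47789543-47789545 (GRCh38, GENCODE v29).
HDAC4 H803: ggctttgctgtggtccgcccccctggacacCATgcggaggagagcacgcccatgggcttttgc
HDAC7 H709: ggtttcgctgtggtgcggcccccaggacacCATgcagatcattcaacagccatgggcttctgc
The aligned windows match at 48 of 63 bases (76.2%), and the 3 bases of the histidine codon are the same. The labels name no transcript, and the same numbering also gives a histidine in HDAC7 ENST00000427332.6, where 20 of 63 bases match. These are reference sequences: the edited bases were not read here.

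How the libraries relate to each other bears on every result. Total counts ran from 8909859 to 24297525, and 1 CPM (counts scaled to library size, with trimmed-mean scaling factors) stood for 9.12 to 23.9 counts. Of the 11715 genes with a mean of at least 5 CPM, the library labelled KDAC4 H803A replicate 1 differed over 4-fold from KDAC7 H709A replicate 4 in 3. It differed over 4-fold from replicates 2 and 3 of its own genotype in 1342 and 1500. KDAC7 H709A replicate 1 in turn differed in 118 and 114 genes from KDAC4 H803A replicates 2 and 3, but in 553, 1083 and 987 genes from its own replicates 2, 3 and 4. Only 2 within-genotype pairs were close: KDAC4 H803A 2 and 3 (8 genes) and KDAC7 H709A 2 and 3 (5 genes).

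Across these genes KDAC7 H709A 4 and the library labelled KDAC4 H803A replicate 1 correlated at r = 0.996 (genes are not independent replicates). Their counts differed by a chi-square of 2.15 per degree of freedom. That is above sampling noise, so they were kept as separate libraries, but below the 15.9 and 32.3 of the close pairs within a genotype. The value cannot tell whether they came from separate cultures or from the same RNA. Whether libraries were exchanged was not tested, for the library labelled KDAC4 H803A replicate 1 or for KDAC7 H709A 1. The similarity was not used to relabel any library. Results are given with and without the library labelled KDAC4 H803A replicate 1, and list counts and class IIa genes also without KDAC7 H709A 1. These libraries were singled out by their values, as lying near the other genotype. Adjusted p-values from fits without them describe the remaining libraries and are no independent evidence of a genotype difference.

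**Figure D1:**
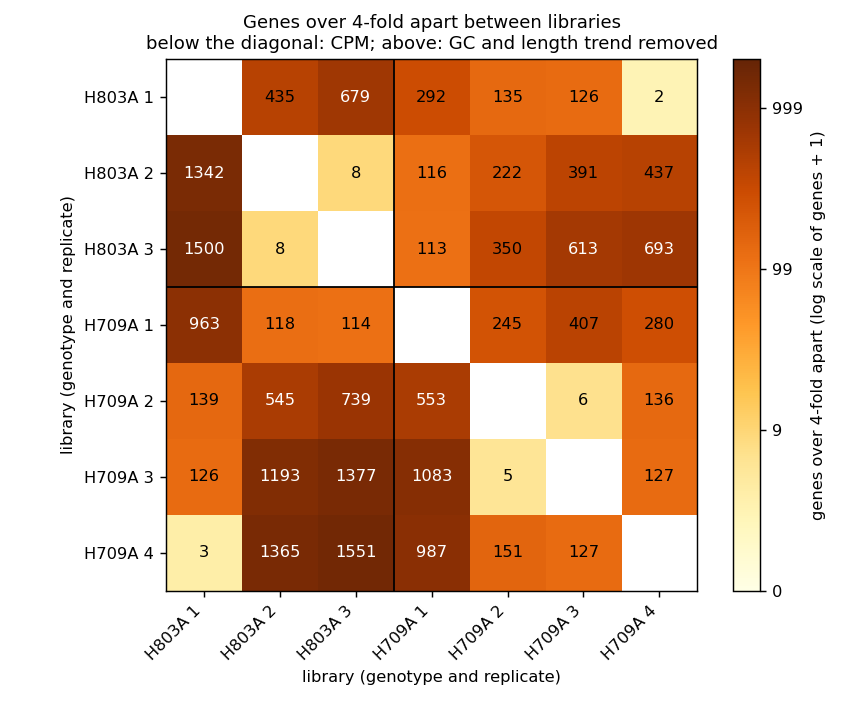
Number of genes over 4-fold apart for each of the 21 pairs of libraries, as CPM below the diagonal and with the trend on GC content and length removed above it. Rows and columns are libraries and the black lines separate the genotypes. H803A 1 is closest to H709A 4 (3 genes), and H709A 1 is closer to H803A 2 and 3 than to its own genotype.

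GC content followed the same division. The median of the 2335 most GC-rich genes minus that of the 2335 most GC-poor, as log2 deviations from the mean of the 7 libraries, was -1.12, 1.35 and 1.24 in KDAC4 H803A replicates 1, 2 and 3. It was 1.10, -0.47, -0.96 and -1.16 in KDAC7 H709A replicates 1 to 4. GC-rich genes were thus high in KDAC4 H803A 2 and 3 and KDAC7 H709A 1, and low in the other 4 libraries. Mitochondrially encoded mRNAs took 6.45% to 14.7% of the counts of KDAC4 H803A libraries and 3.72% to 11.8% of those of KDAC7 H709A, so these ranges overlapped. With the GC and length trend removed, the library labelled KDAC4 H803A replicate 1 still differed over 4-fold from KDAC4 H803A 2 and 3 in 435 and 679 genes and from KDAC7 H709A 4 in 2.

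**Figure D2:**
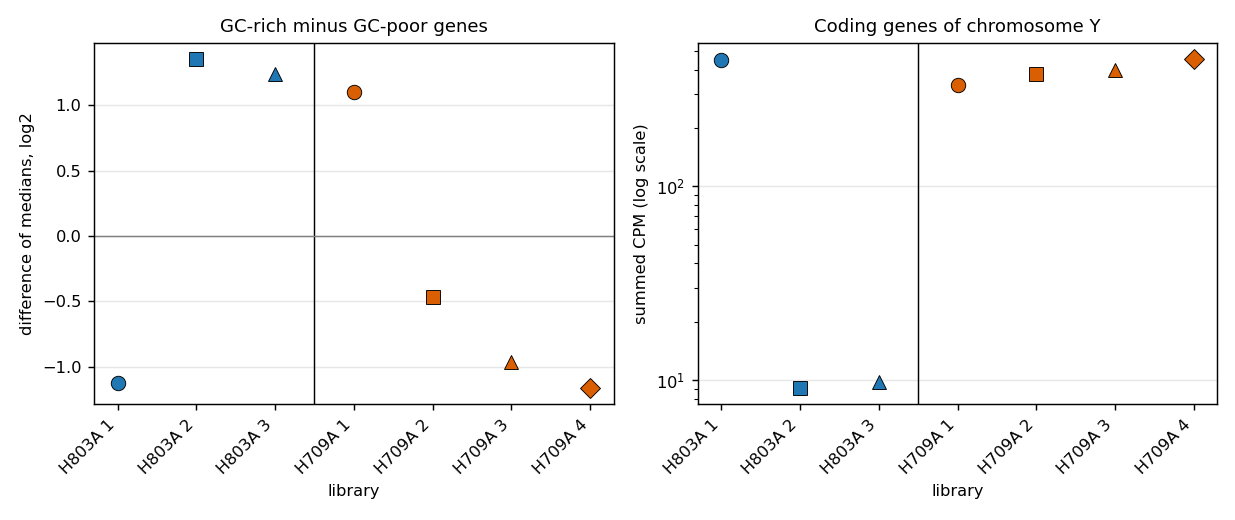
Left, median log2 deviation of GC-rich minus GC-poor genes in each library. Right, summed CPM of protein-coding genes of chromosome Y on a log scale. H803A 2, H803A 3 and H709A 1 lie above 1 on the left, while on the right H803A 2 and 3 alone lie near 9 CPM and the other 5 libraries between 332 and 453.

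The transcripts of the targeted genes were present in all 7 libraries, and their levels overlapped between the genotypes. A single-residue change leaves the transcript in place, so these levels do not check the labels. HDAC4 stood at 17.5, 36.4 and 40.02 CPM in KDAC4 H803A replicates 1 to 3 and at 40.1, 7.29, 4.45 and 18.5 CPM in KDAC7 H709A replicates 1 to 4. The groups overlapped: KDAC7 H709A 1 matched the highest KDAC4 H803A libraries, and the library labelled KDAC4 H803A replicate 1 lay beside KDAC7 H709A 4. The means were 31.3 ± 12.1 (SD, n = 3) and 17.6 ± 16.2 CPM (SD, n = 4), and the log2 fold change of KDAC7 H709A over KDAC4 H803A was -0.83 ± 0.55 (SE; edgeR quasi-likelihood, Benjamini-Hochberg adjusted p = 0.634). In bulk RNA, fewer cells expressing a gene and less RNA per cell cannot be told apart.

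HDAC7 stood at 215, 189 and 201 CPM in KDAC4 H803A and at 422, 88.0, 68.6 and 222 CPM in KDAC7 H709A. The KDAC4 H803A libraries were close together, and the KDAC7 H709A libraries fell on both sides of them. The log2 fold change was -0.01 ± 0.46 (SE; edgeR adjusted p = 0.993).

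HDAC5 ran from 40.2 to 74.7 CPM in KDAC4 H803A and from 39.8 to 65.5 CPM in KDAC7 H709A, with a log2 fold change of -0.24 ± 0.22 (SE; edgeR adjusted p = 0.637). HDAC9 stood at 122, 41.1 and 51.0 CPM in KDAC4 H803A and at 79.4, 94.3, 118 and 121 CPM in KDAC7 H709A. The library labelled KDAC4 H803A replicate 1 lay just above every KDAC7 H709A library, and KDAC4 H803A 2 and 3 lay below them all. With all 7 libraries HDAC9 did not pass (log2 fold change 0.53 ± 0.31 SE, edgeR adjusted p = 0.634). Without that library it was higher in KDAC7 H709A in 4 of 4 libraries, by 1.19 ± 0.20 on the log2 scale (SE; edgeR adjusted p = 0.00455), and by 0.61 ± 0.14 with GC and length offsets (SE; edgeR adjusted p = 0.0148). The offsets remove each library's own trend of log2 CPM on GC content and gene length. Leaving out KDAC7 H709A 1 as well, with offsets, HDAC9 (log2 fold change 0.64, edgeR adjusted p = 0.00142) and HDAC5 (0.73, adjusted p = 0.000808) were higher in KDAC7 H709A. That fit was chosen after seeing the data and called 30.6% of 18444 genes higher and 19.4% lower. Its HDAC5 change was opposite in sign to that with all 7 libraries. In that fit HDAC4 (-0.99, adjusted p = 0.0552) and HDAC7 (0.475, adjusted p = 0.322) did not pass.

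**Figure D3:**
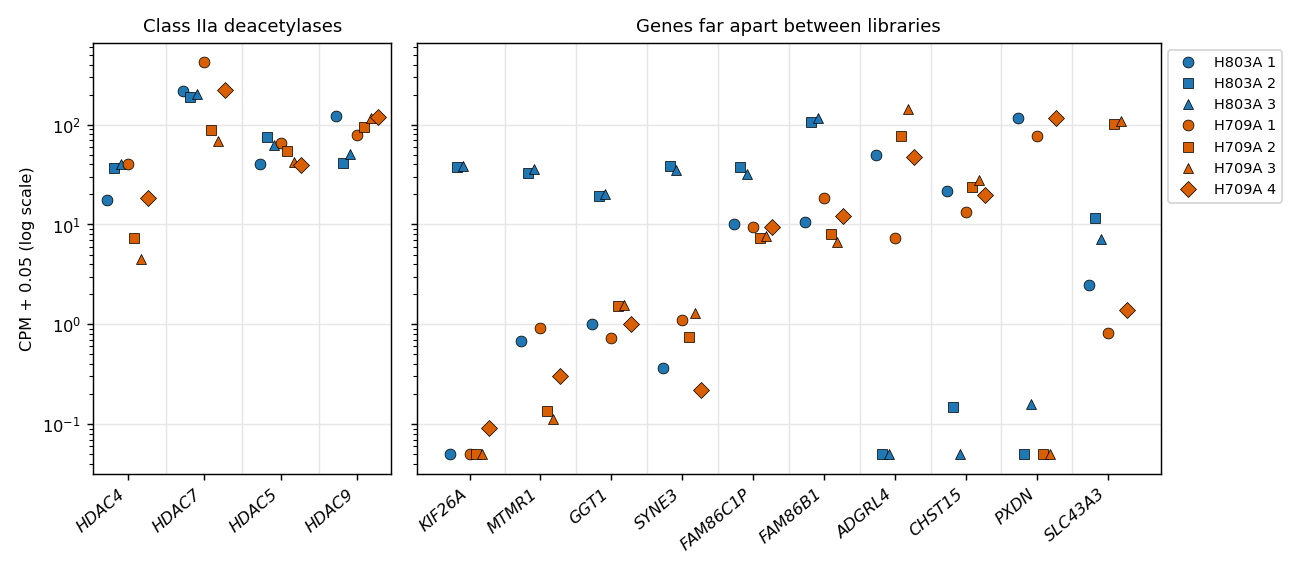
CPM of each library on a log scale (0.05 was added so that zeros can be drawn), for the 4 class IIa deacetylase genes (left) and for genes far apart between libraries (right). Blue marks KDAC4 H803A and orange KDAC7 H709A, with 1 shape per replicate number. For KIF26A through FAM86B1 the blue square and triangle stand above every other library, the blue circle included.

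With all 7 libraries, no gene was called between the genotypes: 0 of 17780 genes tested, or 0%, had an edgeR adjusted p under 0.05, and the smallest was 0.157. At an unadjusted p under 0.05 there were 1118 genes (6.29%), 751 lower and 367 higher in KDAC7 H709A. DESeq2 called 79 genes (15 higher, 64 lower), and limma voom with sample weights called 10954. In voom, KDAC7 H709A 1 and the library labelled KDAC4 H803A replicate 1 had weights of 0.0888 and 0.0427, against 0.288 to 1.57 for the other 5. In 357 genes (2.01%) the libraries of the genotypes did not overlap in CPM.

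Among protein-coding genes with a mean of at least 5 CPM over the 7 libraries, the 6 with the smallest p were all low in KDAC7 H709A, and in each the contrast came from KDAC4 H803A replicates 2 and 3. KIF26A, an atypical kinesin, stood at 0, 37.7 and 38.4 CPM in KDAC4 H803A and at 0, 0, 0 and 0.0419 CPM in KDAC7 H709A (edgeR adjusted p = 0.157). Its level in KDAC4 H803A 2 and 3 was 2350-fold that of the 4 KDAC7 H709A libraries (95% interval 420 to 92800 from the counts, counting error only, on 1 KDAC7 H709A count). The library labelled KDAC4 H803A replicate 1 held none.

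MTMR1, a phosphoinositide phosphatase of the myotubularin family, stood at 0.633, 32.5 and 35.8 CPM in KDAC4 H803A and at 0.0626 to 0.869 CPM in KDAC7 H709A. Its log2 fold change was -6.25 ± 1.02 with all 7 libraries (SE; edgeR adjusted p = 0.157) and -6.83 ± 0.47 without the library labelled KDAC4 H803A replicate 1 (adjusted p = 4.14e-06). GGT1, a gamma-glutamyltransferase that breaks down extracellular glutathione, stood at 0.950, 19.4 and 20.2 CPM against 0.676 to 1.502 CPM (log2 fold change -3.53 ± 0.69 SE, edgeR adjusted p = 0.244). In both genes the library labelled KDAC4 H803A replicate 1 lay within the KDAC7 H709A range.

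SYNE3, which encodes the nuclear envelope protein nesprin-3, stood at 0.317, 38.3 and 34.9 CPM in KDAC4 H803A and at 0.168 to 1.25 CPM in KDAC7 H709A (log2 fold change -4.97 ± 1.03 SE, edgeR adjusted p = 0.3). FAM86C1P and FAM86B1 belong to a family of near-identical copies that share reads, so which copy changed is uncertain. FAM86B1 stood at 10.5, 106.5 and 115.9 CPM against 6.57 to 18.5 CPM (log2 fold change -2.78 ± 0.59 SE, edgeR adjusted p = 0.317). FAM86C1P stood at 10.1, 38.0 and 32.1 CPM against 7.20 to 9.46 CPM (-1.66 ± 0.34 SE, edgeR adjusted p = 0.3). FAM86C1P was the only gene of the 6 whose genotypes did not overlap.

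Without the library labelled KDAC4 H803A replicate 1, edgeR called 4788 of 18610 genes: 3151 higher in KDAC7 H709A (16.9%) and 1637 lower (8.8%). The higher genes had a median GC content of 40.9% and the lower genes one of 56.7%. With offsets for GC content and length, 3312 genes were called, 2284 higher (12.3%) and 1028 lower (5.52%), and the medians of GC content were 48.0% in both directions. The fits shared 2222 calls, 1507 higher and 715 lower. How far the remaining GC differences bear on these calls was not tested beyond the offsets. Of the fits that left out a single library, only that without KDAC4 H803A replicate 1 called any gene. Since that library was singled out by its values, these adjusted p-values are not those of a comparison fixed beforehand.

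The left-out library took the KDAC7 H709A side in nearly all of these genes. In 2344 of the genes called higher without offsets, the remaining libraries of the genotypes did not overlap. The left-out library lay on the KDAC7 H709A side of the midpoint between the remaining means in 98.4% of them. In the 1496 such genes called lower it did so in 99.3%. With offsets the shares were 98.2% of 1857 and 97.5% of 920. That library lay nearest to KDAC7 H709A 4, which helped to define these genes. The shares therefore restate that nearness and are no separate support. In those genes the calls set KDAC4 H803A 2 and 3 apart from the other 5 libraries.

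Some genes were on in some libraries and at or near 0 in the rest. ADGRL4, an adhesion G protein-coupled receptor known from endothelial cells, stood at 49.9, 0 and 0 CPM in KDAC4 H803A and at 7.34, 77.6, 143.5 and 47.6 CPM in KDAC7 H709A. Without the library labelled KDAC4 H803A replicate 1 it was at least 462-fold higher in KDAC7 H709A (floor of 3 counts over the group, edgeR adjusted p = 0.00263). CHST15, a chondroitin sulfate sulfotransferase, stood at 21.5, 0.0969 and 0 CPM against 13.4, 23.6, 27.7 and 19.8 CPM. The ratio was 417-fold (95% interval 74.8 to 16500, counting error only, on 1 count; edgeR adjusted p = 4.14e-06).

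THBS2, the matrix glycoprotein thrombospondin 2, stood at 82.4, 0.0969 and 0 CPM in KDAC4 H803A and at 57.2, 13.7, 15.2 and 84.9 CPM in KDAC7 H709A. In these 3 genes KDAC4 H803A 2 and 3 were alone at the bottom. NRROS, CXADR and DDX43 were also at 0 in both, and higher in KDAC7 H709A by at least 36.1-fold, 38.2-fold and 27.7-fold. CXADR was uneven within KDAC7 H709A, at 0.290, 8.76, 9.83 and 4.32 CPM in replicates 1 to 4, so it was also near 0 in KDAC7 H709A 1.

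In the other direction, SPATA18, a mitochondrial quality control gene, stood at 0, 7.36 and 9.54 CPM in KDAC4 H803A and at 0 in all 4 KDAC7 H709A libraries. It was at least 172-fold lower in KDAC7 H709A without the library labelled KDAC4 H803A replicate 1 (edgeR adjusted p = 0.000904). KCTD8, CDSN, DTX1 and ZNF570 had the same pattern, lower by at least 78.3-fold, 59.3-fold, 34.9-fold and 32.8-fold. NFASC, the cell adhesion protein neurofascin, stood at 0, 29.9 and 29.8 CPM against 0 to 0.193 CPM.

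The promoters of on and off genes are shown because these genes had almost no reads in some libraries. The 250 bases before the RefSeq start (GRCh38.p14, 5′ to 3′ on the gene's strand) are printed with CpG dinucleotides in capitals. KIF26A (chr14:104138337-104138586, plus strand) was on in KDAC4 H803A 2 and 3, and CHST15 (chr10:124093599-124093848, minus strand) and ADGRL4 (chr1:79006731-79006980, minus strand) were off there.
KIF26A: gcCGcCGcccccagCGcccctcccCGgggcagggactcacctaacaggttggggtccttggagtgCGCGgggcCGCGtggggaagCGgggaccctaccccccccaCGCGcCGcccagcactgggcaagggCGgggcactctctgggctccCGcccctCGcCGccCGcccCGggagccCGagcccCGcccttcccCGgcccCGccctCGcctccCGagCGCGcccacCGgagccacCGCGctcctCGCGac
CHST15: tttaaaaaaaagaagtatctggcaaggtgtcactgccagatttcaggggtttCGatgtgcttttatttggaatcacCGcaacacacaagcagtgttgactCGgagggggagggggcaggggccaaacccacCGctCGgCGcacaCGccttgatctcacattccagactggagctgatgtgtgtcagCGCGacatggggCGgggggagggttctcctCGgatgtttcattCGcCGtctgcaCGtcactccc
ADGRL4: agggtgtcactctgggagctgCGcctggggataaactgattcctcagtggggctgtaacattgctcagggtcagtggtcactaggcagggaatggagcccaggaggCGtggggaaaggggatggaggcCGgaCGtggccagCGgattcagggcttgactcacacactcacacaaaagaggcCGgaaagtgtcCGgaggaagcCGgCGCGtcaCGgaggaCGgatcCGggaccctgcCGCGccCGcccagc
The windows hold 31, 14 and 16 CpG, against a median of 11 over 34943 RefSeq windows of this length. The next counts cover genes tested with all 7 libraries that had a mean of at least 5 CPM. NFASC, tested only without the library labelled KDAC4 H803A replicate 1, is not among them. Off chromosome Y, 13 protein-coding genes had their largest gap in level, over 4-fold, with KDAC4 H803A 2 and 3 alone above it. Of these, 11 matched, with 19 windows and a median of 13 CpG (2 to 34). Of the 6 with KDAC4 H803A 2 and 3 alone below it, 5 matched, with 11 windows and a median of 12 CpG (0 to 33). The pattern searched was CTA, any 4 bases, TAG, a loose form of the MEF2 motif that leaves the middle bases free. It reads the same on both strands. The pattern occurred in 2 of the 19 windows, both of OGDHL and overlapping each other, and in 0 of the 11, against 2.36% of all windows. A match describes the letters only and need not be a MEF2 site. DNA methylation was not measured here.

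The gene lists are described by counts called and by their median. In all 27 lists edgeR called 0 members with all 7 libraries. The following counts leave out the library labelled KDAC4 H803A replicate 1, and the median log2 fold change over all genes was 0.02 without offsets and 0.09 with them. Several of the members named were chosen after their values were seen. In every list member called with offsets and measured in all 7 libraries, that library lay on the KDAC7 H709A side of both KDAC4 H803A 2 and 3. This restates that library's nearness to KDAC7 H709A 4 and is no separate support. The counts called are read against 16.9% higher and 8.8% lower without offsets, and 12.3% and 5.52% with them.

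Sterol and fatty acid synthesis genes were higher in KDAC7 H709A in 15 of 26 without offsets (median log2 fold change 0.87) and in 23 of 26 with them (median 1.20), and none was lower. INSIG1, which holds the sterol sensor SCAP in the endoplasmic reticulum, stood at 112, 14.2 and 11.8 CPM in KDAC4 H803A and at 58.5, 113, 167 and 104 CPM in KDAC7 H709A. Its log2 fold change without the library labelled KDAC4 H803A replicate 1 was 3.11 ± 0.37 (SE; edgeR adjusted p = 0.000591), and 2.92 ± 0.32 with offsets (adjusted p = 0.000196). With all 7 libraries the adjusted p was 0.634.

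SCD, the stearoyl-CoA desaturase, stood at 1080.0, 284 and 176 CPM against 327, 1386, 1604 and 1115 CPM. HMGCS1, an early enzyme of the mevalonate pathway, stood at 162, 35.3 and 35.6 CPM against 57.2, 123, 206 and 159 CPM. Both were higher in KDAC7 H709A without the library labelled KDAC4 H803A replicate 1, by 2.29 ± 0.50 and 1.97 ± 0.40 on the log2 scale (SE; edgeR adjusted p = 0.0114 and 0.00896), and in both KDAC7 H709A 1 was the lowest of its group. FASN, the fatty acid synthase, depended on the offsets: its log2 fold change was -0.06 without them (adjusted p = 0.868) and 1.298 with them (adjusted p = 0.0268), on levels of 679, 1235 and 1074 CPM against 1394, 1190.0, 1118 and 682 CPM.

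Integrins and cadherins were higher in 9 and lower in 1 of 21 without offsets (median log2 fold change 1.17), and higher in 12 and lower in 0 with them (median 1.19). ITGB1, the shared beta chain of the matrix-binding integrins, stood at 1774, 384 and 267 CPM in KDAC4 H803A and at 396, 1239, 1461 and 1799 CPM in KDAC7 H709A. ITGA2, a collagen receptor chain, stood at 547, 105.7 and 89.6 CPM against 160.5, 537, 712 and 562 CPM. KDAC7 H709A 1 lay close to KDAC4 H803A 2 in both genes. Their log2 fold changes without the library labelled KDAC4 H803A replicate 1 were 1.94 ± 0.48 and 2.36 ± 0.47 (SE; edgeR adjusted p = 0.0173 and 0.00852).

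Collagens and matrix glycoproteins were higher in 8 and lower in 1 of 26 without offsets, and in 9 and 1 with them (median 0.58). FBN1, the microfibril protein fibrillin 1, stood at 92.0, 27.0 and 21.9 CPM against 54.4, 96.8, 99.5 and 90.5 CPM (log2 fold change without that library 1.82 ± 0.29 SE, edgeR adjusted p = 0.0032). COL5A1, a fibrillar collagen chain, went the other way, at 51.8, 500.2 and 621 CPM against 320, 40.4, 21.2 and 57.0 CPM (-2.35 ± 0.78 SE, adjusted p = 0.0435). The high libraries of COL5A1 were KDAC4 H803A 2 and 3 and KDAC7 H709A 1.

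Matrix proteases and inhibitors were higher in 5 and lower in 1 of 16 without offsets, and in 9 and 1 with them. PLAU, the urokinase plasminogen activator, stood at 677.5, 308 and 230.0 CPM against 479, 849, 885 and 686 CPM (log2 fold change without the library labelled KDAC4 H803A replicate 1 1.45 ± 0.30 SE, edgeR adjusted p = 0.00923). MMP9, a gelatinase, stood at 0.443, 23.3 and 14.3 CPM against 0.386 to 1.48 CPM (-4.39 ± 0.72 SE, adjusted p = 0.00355). MMP9 was high in KDAC4 H803A 2 and 3 alone.

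Genes of TGF-beta signalling moved in both directions, 9 higher and 4 lower of 26 without offsets, and 7 and 2 with them. TGFBR2, the type II receptor, stood at 446, 146 and 135 CPM against 192, 335, 415 and 453 CPM, and was higher by 1.34 ± 0.30 on the log2 scale without the library labelled KDAC4 H803A replicate 1 (SE; edgeR adjusted p = 0.0131). INHBA, the activin beta A subunit and so a ligand chain, stood at 13.9, 46.5 and 39.4 CPM against 7.72, 23.7, 20.8 and 17.1 CPM, and was lower by the same comparison (-1.28 ± 0.31 SE, adjusted p = 0.0165). Every KDAC7 H709A library lay under KDAC4 H803A 2 and 3 for INHBA and over them for TGFBR2.

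Hypoxia and glycolysis genes were higher in 9 and lower in 3 of 31 without offsets, and in 13 and 0 with them (median 0.93). LDHA, the lactate dehydrogenase A chain, stood at 774, 199.8 and 164.5 CPM against 279, 567, 763 and 781 CPM (log2 fold change without the library labelled KDAC4 H803A replicate 1 1.74 ± 0.38 SE, edgeR adjusted p = 0.0117). NRF2 targets were higher in 11 of 24 without offsets and in 9 with them, and lower in 0. ME1, a malic enzyme that makes NADPH, stood at 35.2, 6.69 and 6.69 CPM against 10.2, 46.3, 67.9 and 40.8 CPM (2.65 ± 0.56 SE, adjusted p = 0.0102).

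MEF2 factors and genes known to be regulated by MEF2 were higher in 3 and lower in 1 of 15 in both fits, shares close to those of all genes tested (16.9% and 8.8% without offsets). MEF2C stood at 6.02, 1.55 and 1.54 CPM against 2.70, 9.72, 10.3 and 7.88 CPM (log2 fold change without the library labelled KDAC4 H803A replicate 1 2.33 ± 0.52 SE, edgeR adjusted p = 0.0121). MEF2A stood at 86.9, 24.7 and 28.2 CPM against 33.7, 74.6, 91.0 and 86.0 CPM (1.46 ± 0.33 SE, adjusted p = 0.0128). NR4A1, an orphan nuclear receptor and MEF2 target, stood at 1.27, 10.9 and 11.1 CPM against 5.21, 3.297, 2.25 and 1.17 CPM, and was lower (-1.88 ± 0.42 SE, adjusted p = 0.0123).

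Of the other deacetylases and corepressors, 3 were higher and 1 lower of 16 without offsets, and 1 and 1 with them. HDAC2, a class I deacetylase, stood at 205, 40.6 and 36.0 CPM against 70.6, 135, 165 and 206 CPM (log2 fold change without the library labelled KDAC4 H803A replicate 1 1.94 ± 0.35 SE, edgeR adjusted p = 0.00609). HDAC2 lies on 6q, a stretch described below for its low level in KDAC4 H803A 2 and 3. Immediate early genes were higher in 1 of 21 without offsets and in 7 with them.

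Cell cycle genes were higher in 8 of 31 without offsets and in 6 with them, p53 targets higher in 5 and lower in 9 of 22 without offsets and in 2 and 3 with them. FDXR, a mitochondrial reductase induced by p53, stood at 19.0, 124 and 119 CPM against 61.6, 36.5, 28.6 and 17.9 CPM (log2 fold change without the library labelled KDAC4 H803A replicate 1 -1.74 ± 0.32 SE, edgeR adjusted p = 0.00656). SESN1, another p53 target, was higher, at 32.8, 8.72 and 7.79 CPM against 12.9, 30.02, 42.7 and 32.4 CPM (1.86 ± 0.39 SE, adjusted p = 0.00958).

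Replication-dependent histone genes, many of them near-identical copies, were higher in 3 and lower in 1 of 26 without offsets and in 9 and 0 with them. Interferon-stimulated genes were higher in 6 and lower in 1 of 30, and in 7 and 0 with offsets. Inflammatory cytokines and NF-kB targets were higher in 4 of 18 in both fits. Amino acid and unfolded protein response genes were higher in 5 and lower in 4 of 28, and in 4 and 0 with offsets. Cytosolic ribosomal protein genes were higher in 2 and lower in 1 of 48, and in 7 and 0 with offsets. HOX genes were higher in 1 and lower in 2 of 30, and in 4 and 1 with offsets. None of the 13 mitochondrially encoded mRNAs was called in either fit.

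More genes were called with offsets when KDAC7 H709A 1 was also left out, in a fit chosen after seeing the data that called 30.6% of 18444 genes higher and 19.4% lower (median log2 fold change 0.13). In it sterol and fatty acid synthesis genes were higher in 23 of 25, integrins and cadherins in 16 of 21, hypoxia and glycolysis genes in 24 of 31, and NRF2 targets in 17 of 24, with none lower. Cell cycle genes were higher in 20 of 31 and lower in 0, and cytosolic ribosomal protein genes higher in 28 and lower in 1 of 48. Of the mitochondrially encoded mRNAs, 7 of 13 were lower and 0 higher (median -1.19). Collagens and matrix glycoproteins were higher in 15 and lower in 4 of 26, matrix proteases and inhibitors in 13 and 1 of 16, and MEF2 factors and MEF2-regulated genes in 5 and 2 of 15. Histone genes were higher in 16 and lower in 1 of 26, interferon-stimulated genes in 16 and 2 of 30, and amino acid and unfolded protein response genes in 17 and 2 of 28. TGF-beta genes were higher in 9 and lower in 4 of 26, immediate early genes in 9 and 4 of 21, p53 targets in 7 and 6 of 22, HOX genes in 10 and 5 of 30, inflammatory genes in 7 and 2 of 18, and other deacetylases and corepressors in 6 and 3 of 16.

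**Figure D4:**
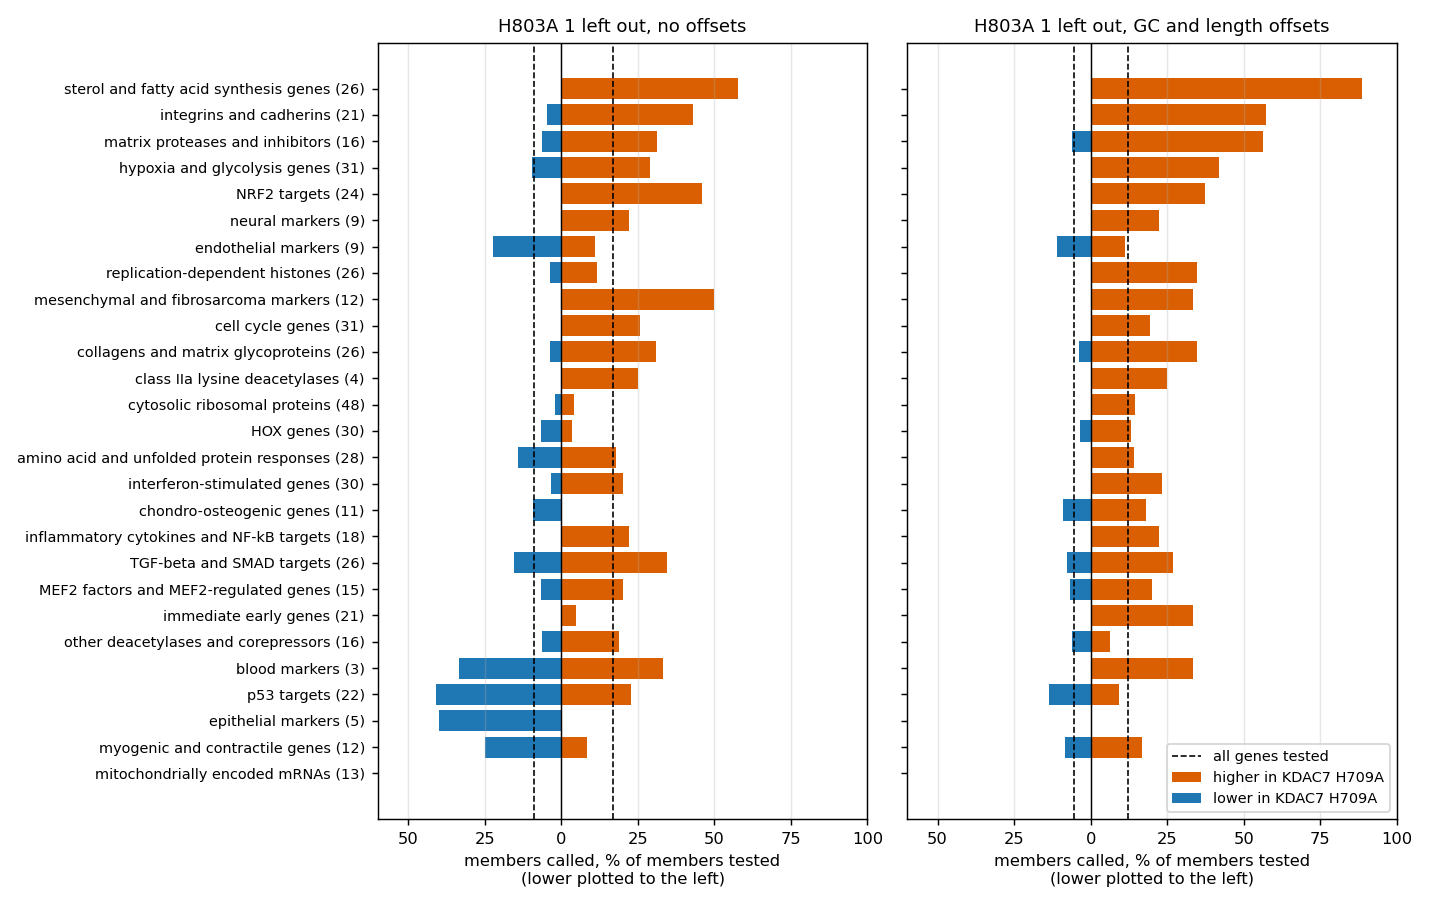
Share of the tested members of each gene list called higher (orange, to the right) or lower (blue, to the left) in KDAC7 H709A without the library labelled KDAC4 H803A replicate 1, at an edgeR adjusted p under 0.05. Dashed lines are the shares of all genes tested, and numbers in brackets are members tested. Sterol and fatty acid synthesis genes have the longest bar with offsets, 23 of 26.

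Within KDAC4 H803A, the library labelled replicate 1 was over 4-fold above both others in 417 genes and over 4-fold below both in 745, with median GC contents of 39.0% and 60.5%. With the GC and length trend removed these were 183 and 208 genes. Replicates 2 and 3 differed from both other libraries in 0 above and 6 below, and in 2 above and 0 below. The genes furthest above in replicate 1 were PXDN, THBS2 and ADGRL4, and those furthest below HIST2H2AA3, PAEP and MYH10. HIST2H2AA3 has a near-identical copy, so its counts are uncertain.

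PXDN, the basement membrane peroxidase peroxidasin, stood at 115.5, 0 and 0.110 CPM in KDAC4 H803A and at 76.7, 0, 0 and 116 CPM in KDAC7 H709A. It was on in KDAC7 H709A 1 and 4 and in the library labelled KDAC4 H803A replicate 1, and off in the other 4, so it split both genotypes. MYH10, a nonmuscle myosin heavy chain, stood at 1.58, 142 and 125 CPM against 7.53, 32.6, 30.1 and 2.68 CPM. MYH10 was lowest in the library labelled KDAC4 H803A replicate 1, followed by KDAC7 H709A 4. PAEP, the secreted protein glycodelin, stood at 0.253, 85.3 and 63.8 CPM against 0.797 to 3.99 CPM and was high in KDAC4 H803A 2 and 3 alone.

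Within KDAC7 H709A, replicate 1 was over 4-fold above all 3 others in 307 genes and below them in 50, or 55 and 14 with the trend removed. Its genes furthest above were ARHGAP4, CPNE7 and GABRA2, and those furthest below SLC43A3, ABCA1 and SLC14A1. CPNE7, a copine of the calcium-dependent membrane-binding family, stood at 81.5, 0, 0 and 8.51 CPM in KDAC7 H709A replicates 1 to 4 and at 10.3, 0.388 and 0.219 CPM in KDAC4 H803A. GABRA2, a GABA receptor subunit, stood at 303, 22.0, 22.9 and 1.76 CPM in KDAC7 H709A and at 1.58, 132 and 109 CPM in KDAC4 H803A. The library labelled KDAC4 H803A replicate 1 again lay beside KDAC7 H709A 4.

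Over all genes KDAC7 H709A 4 was nearer to 2 and 3 (151 and 127 genes over 4-fold apart) than to 1 (987), but in some genes 2 and 3 stood together against 1 and 4. SLC43A3, a purine nucleobase transporter, stood at 0.772, 102, 109 and 1.34 CPM in KDAC7 H709A and at 2.41, 11.6 and 7.13 CPM in KDAC4 H803A. UTY, a histone demethylase gene of chromosome Y, stood at 0.290, 34.4, 32.5 and 0.168 CPM in KDAC7 H709A and at 0, 0 and 0.329 CPM in KDAC4 H803A. GLUL, the glutamine synthetase, was the reverse, at 33.4, 0.434, 0.376 and 53.1 CPM against 52.4, 18.02 and 15.7 CPM.

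ABCA1, the cholesterol efflux transporter, stood at 1.45, 95.3, 98.7 and 5.12 CPM in KDAC7 H709A and at 3.93, 92.1 and 70.9 CPM in KDAC4 H803A. CSPG4, a membrane proteoglycan, stood at 103, 2.34, 1.19 and 52.6 CPM against 52.8, 107.5 and 85.1 CPM. IL24, a cytokine, stood at 110, 5.12, 6.70 and 206 CPM against 201, 29.5 and 34.0 CPM. The genotypes overlapped in each of these 3 genes, and in each the library labelled KDAC4 H803A replicate 1 lay closest to KDAC7 H709A 4. HBE1, embryonic beta-globin, and OR51B5, a neighbouring olfactory receptor gene on chromosome 11, were chosen after their values were seen: they were high in KDAC7 H709A 2 and 3, at 21.5 and 22.1 CPM and at 51.9 and 70.3 CPM. They stood at 0 to 6.78 CPM in the other 5 libraries.

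To see how the libraries divide over all genes, each gene's libraries were ordered by level and split at the largest gap. In 297 genes (2.54%) that gap exceeded 4-fold, and in 0 of them did it separate the 3 KDAC4 H803A from the 4 KDAC7 H709A libraries. The most frequent split set KDAC4 H803A 2 and 3 with KDAC7 H709A 1 above the rest, in 172 genes with a median GC content of 63.1%. KDAC4 H803A 2 and 3 stood alone above in 23 genes and alone below in 16, and KDAC7 H709A 2 and 3 stood alone below in 21 and alone above in 9.

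Of the 16 genes low in KDAC4 H803A 2 and 3 alone, 13 were protein-coding, and all but 6 of these lie on chromosome Y. DDX3Y, an RNA helicase, stood at 109.1, 1.65 and 1.32 CPM in KDAC4 H803A and at 87.5, 81.4, 80.5 and 103 CPM in KDAC7 H709A. The protein-coding genes of chromosome Y summed to 450.3, 9.11 and 9.76 CPM in KDAC4 H803A, on 7110, 94 and 89 counts, and to 332, 381, 396 and 453 CPM in KDAC7 H709A. The other groups of the series lay between 286 and 471 CPM. This sum was thus low in KDAC4 H803A 2 and 3 and in no other of the 14 libraries. Single genes of chromosome Y departed from it: UTY was also under 0.3 CPM in the library labelled KDAC4 H803A replicate 1 and in KDAC7 H709A 1 and 4. PCDH11Y, a protocadherin gene with a close copy on chromosome X, stood at 0.127, 1.16 and 2.74 CPM in KDAC4 H803A and at 3.28, 0.347, 0.689 and 0.0419 CPM in KDAC7 H709A.

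Genes of other stretches were low together. On chromosome 6 the median deviation from the mean of the 7 libraries, GC and length trend removed, was -0.25 and -0.27 on the log2 scale in KDAC4 H803A 2 and 3, against 0.07 to 0.13 in the other 5. The low genes lay on 6q: the 26 genes from 100 to 110 Mb had medians of -0.63 and -0.64 in these libraries, and the 35 genes from 150 to 160 Mb had medians of -0.56 and -0.49. On 7q, the 28 genes from 150 to 160 Mb had medians of -0.60 and -0.46. In each window the other 5 libraries lay above 0. In KDAC7 H709A 2 and 3, the 20 genes of chromosome 2 beyond 240 Mb had medians of -0.79 and -0.83, against 0.12 to 0.45 in the other libraries, KDAC4 H803A 2 and 3 highest. HDAC4 itself lies before 240 Mb, at chr2:239048168-239401654. That limit is only the edge of a window. Where the low genes begin, and whether HDAC4 is among them, was not tested. In the window of HDAC4, from 230 to 240 Mb, the 41 genes had medians of 0.32 and 0.13 in KDAC7 H709A 2 and 3. HDAC4 was lowest in these libraries. TWIST2, a mesenchymal transcription factor gene near HDAC4, was highest there, at 64.7 and 62.2 CPM against 12.7 to 27.4 CPM in the other 5. On chromosome 15, the 24 genes from 20 to 30 Mb were low in another pair of libraries. Their medians were -0.654 in the library labelled KDAC4 H803A replicate 1 and -0.622 in KDAC7 H709A 4. They were 0.655 and 0.713 in KDAC4 H803A 2 and 3. DNA copy number was not measured here.

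**Figure D5:**
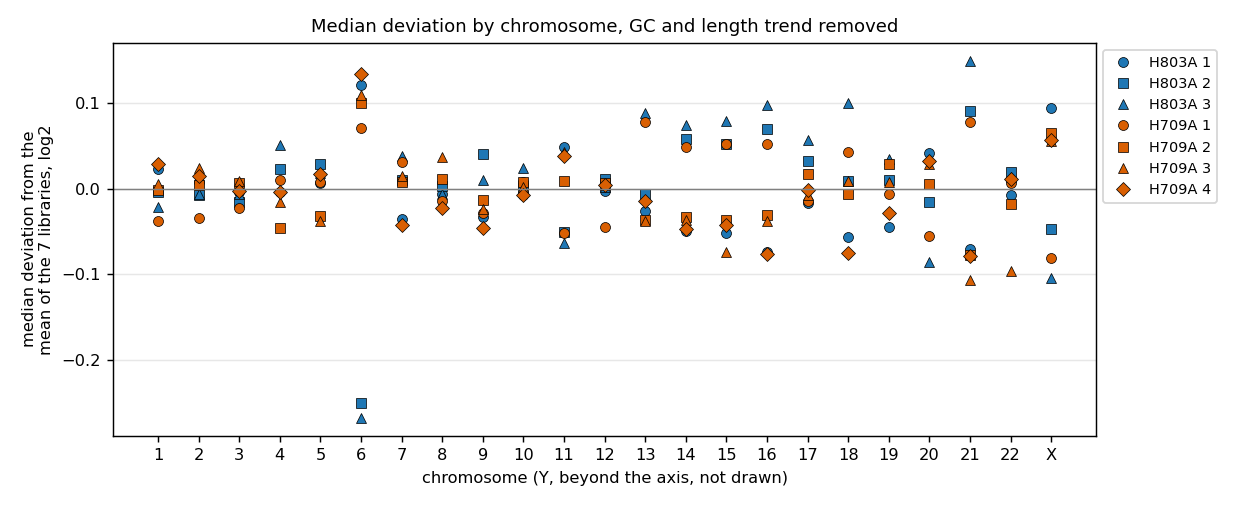
Median log2 deviation of the genes of each chromosome from the mean of the 7 libraries, GC and length trend removed. Chromosome Y, at -2.56 and -2.15 in H803A 2 and 3, is beyond the axis and not drawn. Chromosome 6 in H803A 2 and 3 lies lowest, at -0.25 and -0.27.

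Markers of the labelled mesenchymal tumour were present. Of 14 mesenchymal markers, 10 were at 1 CPM or more in all 7 libraries, with VIM at 2808 to 5636 CPM. Their summed level ran from 3583 to 8662 CPM in KDAC4 H803A and from 4668 to 8623 CPM in KDAC7 H709A. The epithelial markers CDH1, KRT19, KRT14 and OVOL1, the blood markers PTPRC, CD3E and HBB, the endothelial marker ERG and the neural markers DCX and ELAVL4 had 0 counts in all 7. So did the myogenic factors MYOD1, MYF5, MYF6, MYOG, PAX3 and PAX7. Of the 27 myogenic and contractile genes listed with them, 11 were at 1 CPM or more in all 7 libraries. Of 18 chondro-osteogenic genes, 8 were. So were 3 of 14 epithelial, 3 of 12 endothelial, 3 of 12 blood and 5 of 14 neural markers, so none of these lists was absent as a whole.

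Sums over the other marker lists overlapped between the genotypes. They were 358.5 to 504 and 268 to 369 CPM for epithelial markers, 127.5 to 165 and 89.5 to 172 CPM for endothelial markers, 170 to 258 and 101 to 322 CPM for blood markers, and 128 to 237 and 193 to 266 CPM for neural markers. Myogenic and contractile genes summed to 847 to 1221 CPM in KDAC4 H803A and to 630.5 to 1365 CPM in KDAC7 H709A. Chondro-osteogenic genes summed to 561 to 609 and 505 to 633 CPM. KRT8, a simple keratin, stood at 145, 270 and 221 CPM in KDAC4 H803A and at 126 to 162 CPM in KDAC7 H709A. It was present in every library. Without the library labelled KDAC4 H803A replicate 1, mesenchymal markers were higher in KDAC7 H709A in 6 of 12 and lower in 0, and in 4 of 12 with offsets. Of all genes tested, 16.9% were called higher without offsets and 12.3% with them. CD44, the hyaluronan receptor, stood at 1592, 385 and 349 CPM against 517, 1117, 1321 and 1651 CPM (log2 fold change 1.68 ± 0.37 SE, edgeR adjusted p = 0.012).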

How the data were processed

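RNA sequencing was done on rRNA-depleted total RNA, per the labels' protocols. The deposited table holds expected counts per gene that the authors made on GRCh38. RSEM 1.3.3, Bowtie2 2.4.5, DESeq2 1.38.2 and Trimmomatic 0.39 are the tools listed, without roles, per the submitters' processing notes. RSEM divides reads between similar genes by estimate, so counts of near-identical copies are uncertain. Whether the counting used strand is not given in the sources used here. The deposited values of the column labelled KDAC4 H803A replicate 4 are effective gene lengths and were left out.

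Expected counts were rounded and tested in R 4.3.3 with edgeR 4.0.16: filterByExpr (minimum count 10, total 15), trimmed-mean scaling, 1 quasi-likelihood model of 4 groups over 14 libraries, and Benjamini-Hochberg adjustment over all genes tested, called under 0.05. The SE was derived as the size of the log2 change over root F. Levels are CPM, and within-genotype differences use log2(CPM + 1) over genes with a mean of at least 5 CPM. Offsets for GC content and length came from a smooth trend per library (mgcv 1.9.3), with values for 99.2% of tested genes (GENCODE v29). Of 60675 gene identifiers, 57055 matched that annotation. Intervals of ratios (95%) and floors (3 counts) cover counting error only.

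Alternatives were DESeq2 1.42.0, limma 3.58.1 (voom), other scalings and filters, libraries left out, and the replicate number as a block. Offsets together with left-out libraries, and DESeq2 without 1 library, were chosen after seeing the data. Same-numbered libraries did not deviate together (r = -0.69, 0.05 and -0.38). The deviations are from group means that include the libraries lying near the other genotype, so this check cannot exclude a pairing.

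Named genes were the targeted pair and the 6 protein-coding genes with the smallest p among those with a mean of at least 5 CPM. For each library, the 3 genes furthest above and below its own genotype were also selected. So were the 2 members of each list with the smallest p, of which only some are given. Called genes with the largest changes came from the fit without the library labelled KDAC4 H803A replicate 1. That choice was made after the values were seen, since no gene was called with all 7 libraries. The 3 furthest genes per library are protein-coding and meet the same minimum. Other genes named were chosen after their values were seen. The members and the lists were chosen with earlier results of these data known.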

Additional observations from a re-analysis of the deposited data

Results flagged for a closer look

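Dixon's criterion was applied to the 4 KDAC7 H709A libraries for 88 measures and genes. It marked 7 of them as holding a library far from the other 3, and chance marks about 1 in 20 groups. KDAC7 H709A 1 was the distant library for mitochondrial rRNA, at 0.345% of counts, for FBN1 at 54.4 CPM, for EPAS1, a hypoxia-inducible factor subunit, at 59.1 CPM, and for the ribosomal protein gene RPLP2 at 129 CPM. KDAC7 H709A 2 was distant for PTGES, a prostaglandin E synthase, at 1.56 CPM and for ZNF239, a zinc finger gene, at 0.0868 CPM against 0 in the others. KDAC7 H709A 4 was distant for KIF26A, at 0.0419 CPM against 0. The last 2 values rest on 1 count each. The 3 KDAC4 H803A libraries were not examined in this way.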

How the results depend on the processing

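Leaving out 1 library at a time gave 0 to 4788 called genes (0 to 3151 higher, 0 to 1637 lower), and only the fit without KDAC4 H803A replicate 1 gave any. Leaving out KDAC4 H803A 1 and KDAC7 H709A 1 together gave 11360 (5891 higher, 5469 lower), and KDAC4 H803A 1 with KDAC7 H709A 4 gave 2574 (1750 higher, 824 lower). With GC and length offsets there were 3312 without KDAC4 H803A 1 (2284 higher, 1028 lower) and 9211 without KDAC4 H803A 1 and KDAC7 H709A 1 (5635 higher, 3576 lower). DESeq2 called 79 with all 7 libraries (15 higher, 64 lower) and 5975 without KDAC4 H803A 1 (3890 higher, 2085 lower). Voom called 10954 (5387 higher, 5567 lower), no filter on low counts 14, all lower, and reading the effective lengths as counts 2, both lower. The replicate block, with or without offsets, offsets alone, both other scalings, the 1 CPM filter and the fit of the 7 libraries alone each called 0. Same-numbered libraries did not deviate together, but that check cannot exclude a pairing by replicate number. Of 42 genes with a tested fold change in the text, 3 changed direction in some of these fits. HDAC7 (-0.01) turned positive: 0.0237 with no filter, 0.05 without KDAC4 H803A 1, 0.23 and 0.27 without KDAC7 H709A 2 and 3, 0.0814 with offsets, 0.36 with the effective lengths, 0.64 with offsets without KDAC4 H803A 1, 0.475 with offsets without KDAC4 H803A 1 and KDAC7 H709A 1, and 0.0244 by DESeq2 without KDAC4 H803A 1. Leaving out 1 library at a time gave -0.69 to 0.27 for HDAC7 and -0.0572 to 0.32 for FASN. HDAC5 (-0.24) turned positive with offsets (0.25, 0.27 with the replicate block), with the effective lengths (0.0182), and with offsets without KDAC4 H803A 1 (0.54) or without it and KDAC7 H709A 1 (0.73). FASN (0.14) turned negative without KDAC4 H803A 1 (-0.0572, -0.10 by DESeq2), without KDAC7 H709A 1 (-0.01), without both (-0.16) and by voom (-0.0519). The cause of these turns was not tested. Of the counts of genes over 4-fold apart, 44 moved by over 1.5 times under another pseudocount, filter, scaling or trend removal and 61 did not. KDAC4 H803A 3 is the shallowest library, at 9.12 counts per CPM, so levels under 0.329 CPM there rest on fewer than 3 counts.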
